A study of Mus musculus with 28 samples.

Results

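The immunoglobulin heavy chain locus of the mouse, Igh, was described by DNA copy number in thymic lymphomas, which are T-cell tumours, and in sarcomas of the same mouse genotypes. Its members were the annotated gene segments with symbols starting Ighv, Ighd, Ighj, Ighm, Ighg, Igha or Ighe on chromosome 12 from 113256204 to 116009954 (GRCm38). The rule found 215 of the 47042 autosomal genes of the RefSeq annotation. These were 8 constant genes, 4 J segments, 20 D segments (10 of them pseudogenes) and 183 V segments (63 of them pseudogenes). A deposited copy number segment overlapped 202 of the 215 members in every tumour, and the other 13 were given the nearest segment's value in the tumours where no segment reached them.

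An antibody heavy chain gene is assembled in developing B cells by cutting and rejoining DNA at the locus. The RAG1 and RAG2 proteins make the cuts, and other proteins join the ends. A D segment is first joined to a J segment and then a V segment to the joined pair. The DNA between the joined ends is lost from the chromosome. In textbook accounts, D-to-J joining at Igh also takes place in many developing T cells, whereas V-to-DJ joining at Igh and joining at the kappa light chain locus, Igk, are largely restricted to B cells. The locus lies with its constant genes at the lower coordinates, so the order along the chromosome is constant, J, D and V, and within J the order is Ighj4, Ighj3, Ighj2 and Ighj1.

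The study sequenced exomes, the captured protein-coding part of the genome, of 24 tumours from mice that inherited altered Trp53, the gene of the tumour suppressor p53. The genotype p53 AD/- carries an allele for a dimeric p53 and p53 RP/- an allele for a monomeric p53, each over a null allele that every mouse shared, on a mixed background that was 50% BALB/C and 50% C57BL6. The groups were thymic lymphomas, 7 AD and 7 RP, and sarcomas, 5 AD and 5 RP, taken at the end point of each animal; no wild-type p53 tumours were in these groups, and 4 ear samples were not analysed here. The title codes of the 24 tumours all differ, and the labels do not say what the codes stand for, so p-values measure the spread between these tumours. The tumours had 59 to 517 segments over 211948 to 212450 markers, a marker being a capture target or window, and 0 tables were identical. Every AD and RP thymic lymphoma had fewer markers than every sarcoma, so any difference in how their tables were made cannot be told apart from tumour type.

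Values are log2 copy ratios of tumour over comparison DNA, minus the median of the chromosome in that tumour weighted by segment length. On this scale, 1 copy against 2 in every cell gives -1, and normal cells in a tumour move a value towards 0. A stretch was called lost at -0.3 or below and gained at 0.3 or above. Between Ighj4 and Ighd1-1 the tables held 14 known markers, 13 of which started at the first base of a J or D segment, so that a loss could be placed to single J and D segments there.

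The lost part of Igh was the J segments and the D segments next to them. A stretch of J-D markers was lost in 11 of 14 thymic lymphomas, 5 AD and 6 RP, and in 0 of 10 sarcomas, where 0.629% of all genes were lost in at least 1. Ighj1, the J segment nearest to the D segments, was lost in all 11, and 0.285% of the 47042 genes were lost in at least 11 of the 14 thymic lymphomas. Its log2 copy ratio in the thymic lymphomas ran from -4.03 to 0.14, with a mean of -1.41 ± 1.38 (SD, n = 14), against 0.02 ± 0.09 (SD, n = 10) in sarcomas. Of the other members, Ighd4-1, the D segment nearest to J, was lost in 10, Ighj2 in 9 and Ighd3-2 in 7; 0.461% of genes were lost in at least 7, and 0.415% in at least 7 and in no sarcoma. These were the only 4 of the 215 members lost in at least 7 of the 14.

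The losses ended at different J segments on the constant side. In AD thymic lymphoma 3 and RP thymic lymphoma 3 the first lost marker was Ighj1 and Ighj2 was kept. It was Ighj2, with Ighj3 kept, in RP thymic lymphomas 2, 4 and 7 and also in AD thymic lymphomas 1 and 6. In AD thymic lymphoma 2 and RP thymic lymphomas 5 and 6 it was Ighj3, with Ighj4 kept. Only AD thymic lymphoma 4 had lost Ighj4, and its loss ran on past J into the constant genes. Along the 4 J segments the count of lymphomas with a loss therefore went from 1 at Ighj4 to 4 at Ighj3, 9 at Ighj2 and 11 at Ighj1, where 1.24% of all genes were lost in at least 4.

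On the V side the losses ended at different D segments. RP thymic lymphoma 4 had lost no D segment. The last lost marker was Ighd4-1 in 3 lymphomas, Ighd3-2 in 2, Ighd2-6 in 2, Ighd2-4 in 1 and Ighd2-3 in 2. The count with a loss fell from 10 at Ighd4-1 to 7 at Ighd3-2, 5 at Ighd2-8, Ighd2-7 and Ighd2-6, 3 at Ighd2-5 and Ighd2-4, and 2 at Ighd2-3. It was 0 at Ighd1-1, so the D segments nearest to V were kept at this resolution in all 14; Ighd5-1, the last D segment by position, was between -0.05 and 0.14 in them.

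**Figure D1:**
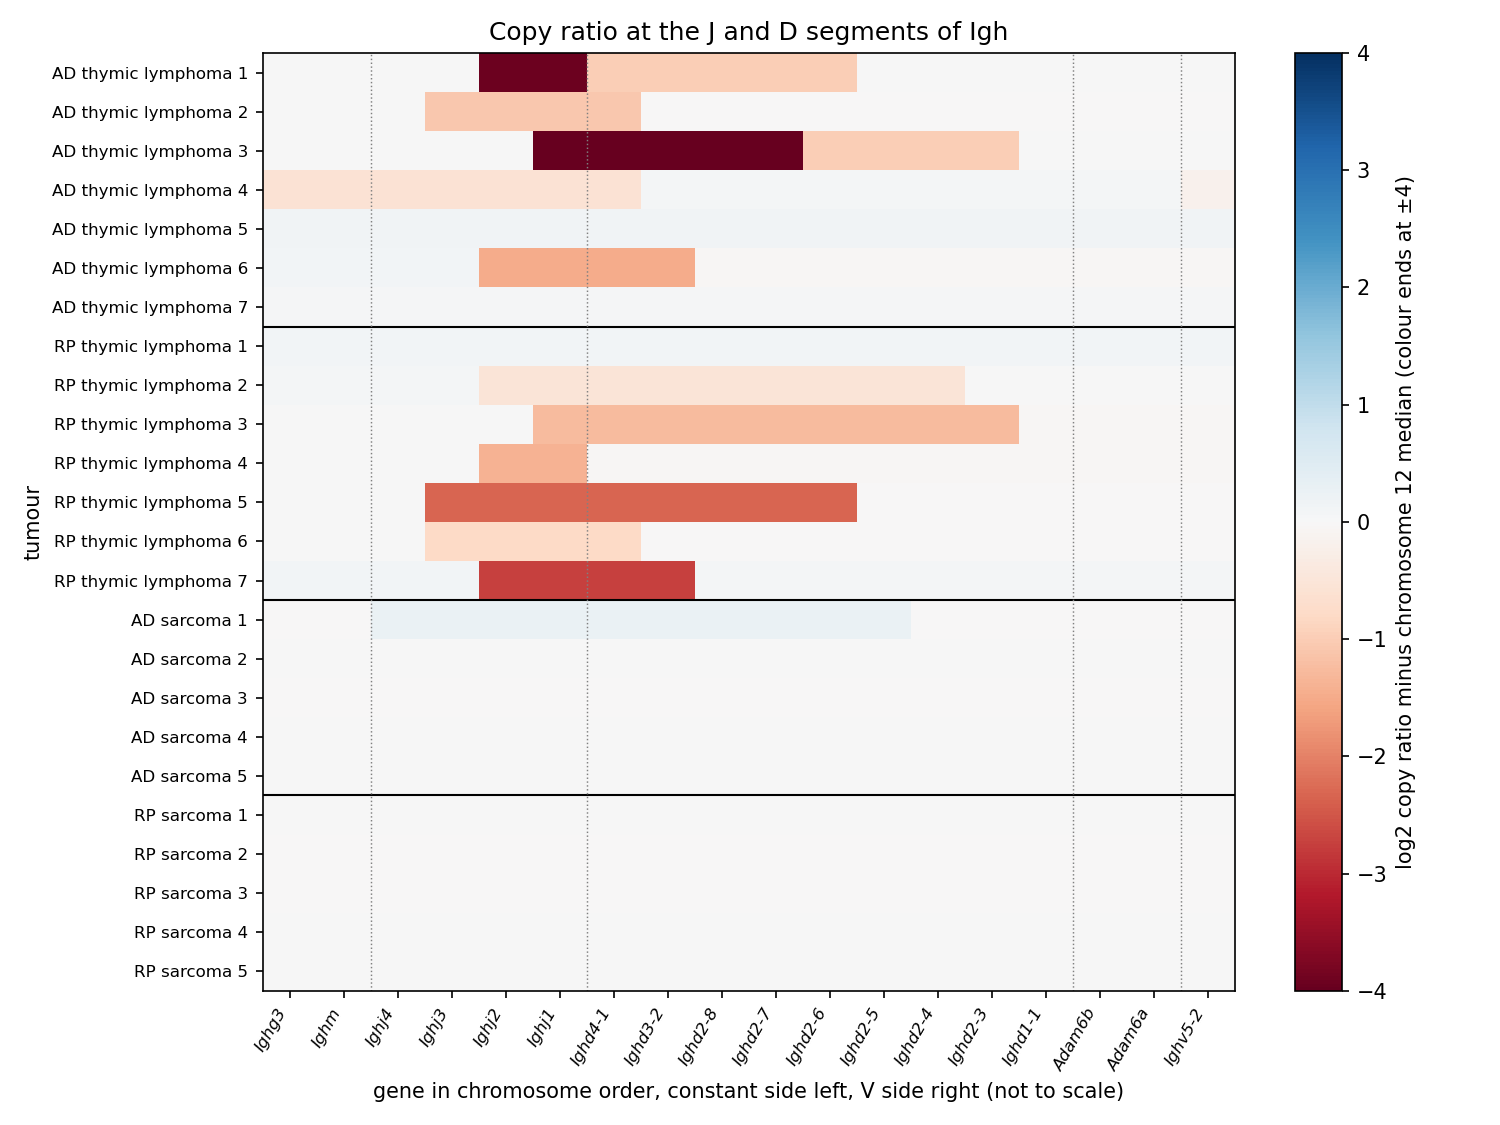
Log2 copy ratio minus the chromosome 12 median (colour; red is lower) at each known marker from the constant genes through J and D to V (columns) in each of the 24 tumours (rows). In 11 of the 14 thymic lymphomas a block of low values covers Ighj1 and a run of neighbouring J and D markers, and 0 of the 10 sarcomas has such a block.

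The depth of the loss also varied. The deepest values were in AD thymic lymphomas 3 and 1. In AD thymic lymphoma 3 the stretch from Ighj1 to Ighd2-7 was at -4.03, which is 6.14% of the ratio over the rest of the chromosome, and continued to Ighd2-3 at -0.98 (50.6%), over 10 markers in all. In AD thymic lymphoma 1, Ighj2 and Ighj1 were at -3.92 (6.59%), and the stretch from Ighd4-1 to Ighd2-6 was at -0.97 (51.0%), over 7 markers in all. These were the only 2 losses with a pair of levels. Each had an inner level far below the -1 that loss of 1 copy gives, and an outer level near it.

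The other 9 losses had 1 level each. RP thymic lymphoma 7 had lost Ighj2 to Ighd3-2 at -2.73 (15.0% of the ratio, 4 markers), and RP thymic lymphoma 5 Ighj3 to Ighd2-6 at -2.33 (19.9%, 8 markers). AD thymic lymphoma 6 had lost Ighj2 to Ighd3-2 at -1.49 (35.5%, 4 markers). RP thymic lymphoma 4 had lost Ighj2 and Ighj1 alone at -1.38 (38.4%, 2 markers). These 4 were also below -1.

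RP thymic lymphoma 3 had lost Ighj1 to Ighd2-3 at -1.25 (42.0%, 10 markers), and AD thymic lymphoma 2 Ighj3 to Ighd4-1 at -1.07 (47.7%, 4 markers). RP thymic lymphoma 6 had lost Ighj3 to Ighd4-1 at -0.79 (58.0%, 4 markers). AD thymic lymphoma 4 was at -0.58 (66.9%, 23 markers) from Ighg3 to Ighd4-1, and RP thymic lymphoma 2 at -0.51 (70.2%, 10 markers) from Ighj2 to Ighd2-4. In all, 8 of the 11 losses reached -1 or below, and the median of the lowest values was -1.38.

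The distance between the first and the last lost marker was 0.313 kb in RP thymic lymphoma 4 and 73.1 kb in AD thymic lymphoma 4, with a median of 31.9 kb over the 11. Both ends were the same in 3 pairs of lymphomas, each of 1 AD and 1 RP tumour. The pair AD thymic lymphoma 3 and RP thymic lymphoma 3 shared a stretch of 45.6 kb starting at 113429781, AD thymic lymphoma 6 and RP thymic lymphoma 7 one of 18.7 kb starting at 113429468, and AD thymic lymphoma 2 and RP thymic lymphoma 6 one of 1.44 kb starting at 113429085. Markers sit at the start of each segment, so equal ends mean the same neighbouring markers and not the same base. Of the 11 stretches, 5 rested on 5 or fewer markers.

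The 3 lymphomas with no J-D loss were AD thymic lymphoma 5, at 0.14 over the whole of J-D, AD thymic lymphoma 7 at 0.06 and RP thymic lymphoma 1 at 0.12. In the sarcomas the same markers lay between -0.02 and 0.27. The highest was AD sarcoma 1, in which 1 segment from Ighj4 to Ighd2-5 (10 markers) stood at 0.27, below the value called a gain; its neighbours were at -0.0008 on the constant side and -0.02 on the V side. The other 9 sarcomas each had 1 segment over the whole of Igh.

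Among the constant genes, which encode the antibody classes, only AD thymic lymphoma 4 had a loss called over whole genes. Ighg3, Ighd and Ighm, the constant genes nearest to J, were at -0.58 in it, on the same segment as its J loss. Igha, Ighe, Ighg2c, Ighg2b and Ighg1, the constant genes farther from J, were called lost in 0 of 14. Their means were 0.05 ± 0.05 or 0.06 (SD, n = 14) against -0.0030 ± 0.0048 (SD, n = 10) in sarcomas. In RP thymic lymphoma 1 a segment of 2 markers at the edge of Ighg2c was at -0.95, and the rest of that gene was at 0.12. The constant genes were therefore near the chromosome median in 13 of the 14 lymphomas.

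The interval between D and V, from 113526810 to 113572928, holds Adam6a and Adam6b, testis genes required for male fertility in the mouse that lie inside the antibody locus. Both were lost in 0 of 24 tumours. Their log2 copy ratio was between -0.05 and 0.14 in the thymic lymphomas, with a mean of 0.02 ± 0.06 (SD, n = 14), and -0.0045 ± 0.0062 (SD, n = 10) in sarcomas. The groups overlapped.

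**Figure D2:**
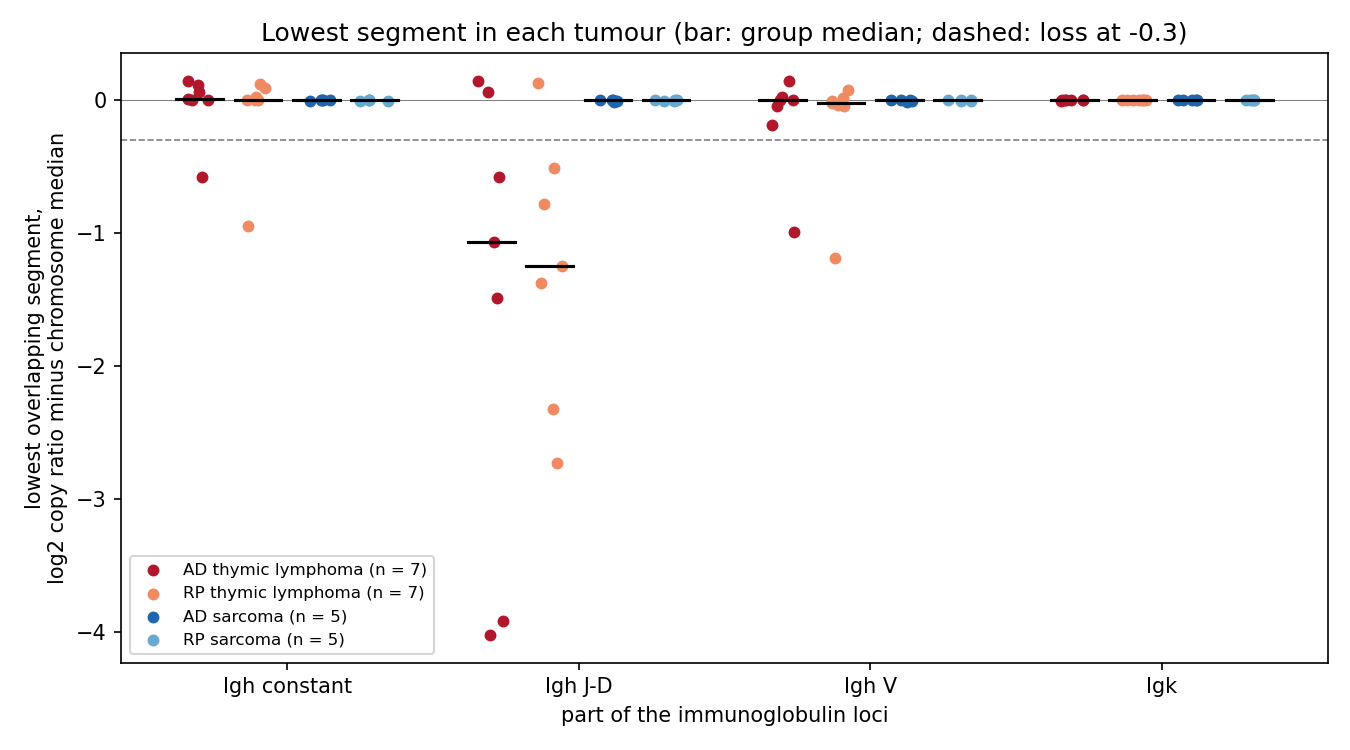
Lowest log2 copy ratio minus the chromosome median of any segment over the constant, J-D and V parts of Igh and over Igk (vertical axis). Points are tumours in the 4 groups, and bars are group medians. At J-D 11 of the 14 thymic lymphomas lie at -0.3 or below and 0 of the 10 sarcomas do. In the constant part 2 of the 14 lie there, in V 2 and at Igk 0.

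The mean over J-D, 98.3 kb from 113428514 to 113526809, lay nearer to 0 than the deepest marker, since it also covers kept D segments. It was at -0.3 or below in 6 of 14 thymic lymphomas (3 AD and 3 RP) and in 0 of 10 sarcomas. Over the thymic lymphomas it ran from -1.40 to 0.14 with a median of -0.14 and a mean of -0.28 ± 0.44 (SD, n = 14). Sarcomas ran from -0.01 to 0.10 with a mean of 0.01 ± 0.03 (SD, n = 10). Low values were spread over both genotypes, and the upper part of the lymphoma range overlapped the sarcomas.

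The difference between thymic lymphomas and sarcomas in this mean was -0.29, which did not pass after adjustment (exact permutation test within genotype, two-sided, n = 14 and 10, p = 0.0396, adjusted p = 0.316 over 8 regions). With centring on the autosomes it was -0.17 (adjusted p = 0.34). Measured by the lowest segment in J-D the difference was -1.41 and passed (exact permutation, n = 14 and 10, adjusted p = 0.0248), and as a mean over the J-D markers it was -0.52 (adjusted p = 0.0486), a measure chosen after seeing the data. The lowest segment can only fall as a part is cut into more segments. Segments started between Ighj4 and Ighd1-1 in 11 thymic lymphomas and in 1 sarcoma, which the lowest segment does not allow for. The constant part differed by 0.03 (adjusted p = 0.706), or by 0.05 and past the threshold without AD thymic lymphoma 4 (adjusted p = 0.0353), the D-to-V interval by 0.03 (adjusted p = 0.669) and V by -0.02 (adjusted p = 0.759), all by the same exact test.

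Within the thymic lymphomas J-D minus the constant part was -0.31 on average, and J-D was the lower in 10 of 14 tumours, equal in 2 and higher in 2 (exact sign-flip permutation test, n = 14, p = 0.00879, adjusted p = 0.0527 over 6 pairs). It was lower than V in 11 of 14, with a mean difference of -0.25 (exact permutation, n = 14, adjusted p = 0.115), and lower than Igk in 10 of 14, with a mean difference of -0.28 (exact permutation, n = 14, adjusted p = 0.0568), or of -0.11 without centring (adjusted p = 0.38). None of the 3 passed after adjustment with the mean over length. The difference between J-D and the constant part was also -0.31 without centring, where it passed (adjusted p = 0.0176, since the other pairs in the adjustment moved), and it passed at -0.36 to -0.34 with AD thymic lymphoma 4, 5 or 7 or RP thymic lymphoma 1 left out. With the lowest segment all 3 passed, at -1.34, -1.25 and -1.41 with adjusted p = 0.0146, 0.0234 and 0.00586 (exact permutation, n = 14). That measure leans towards a lower J-D, which was cut by segment starts in 11 of these lymphomas. V was cut in 4, and Igk was 1 segment in all 24 tumours. In the sarcomas the 3 differences with the mean over length were 0.01, 0.01 and 0.01 (exact permutation, n = 10, adjusted p = 1.0 each).

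Igk lies on chromosome 6 from 67555636 to 70726754 and holds 168 annotated gene segments. In all 24 tumours 1 segment spanned the whole of it. Its log2 copy ratio minus the chromosome 6 median was between -0.01 and 0 in the thymic lymphomas and 0 in the 10 sarcomas. Where it was 0, the segment over Igk itself set the chromosome 6 median, so that value was fixed by the centring. In those tumours J-D minus Igk equals J-D alone. Relative to chromosome 6, Igk was lost in 0 of 24 tumours. The J-D part of Igh had a lost stretch in 11. The chromosome 6 median itself, before centring, ran from -0.39 to -0.11 in the thymic lymphomas and from -0.16 to 0.01 in the sarcomas. That median was at -0.3 or below in AD thymic lymphomas 3, 4 and 7 and RP thymic lymphomas 2, 5 and 7. The kappa locus thus showed neither a loss beyond that of its chromosome nor a segment end at this resolution.

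The V part of Igh, 183 gene segments over 2437 kb, had no loss shared by several lymphomas. Segment starts fell within V in only 4 thymic lymphomas, with 20 starts in all, and in 0 sarcomas. Of the 183 V segments, 82 were lost in 1 thymic lymphoma and 101 in none. Gains covered 49, each in 1 lymphoma: 34 in RP thymic lymphoma 1, 13 in AD thymic lymphoma 5 and 2 in AD thymic lymphoma 4. The share of all genes gained was not computed, so the count of gains has no background to be read against. Over all members 105 of 215 were lost in at least 1 thymic lymphoma, where 9.29% of all genes were. Ighv5-1, the V segment nearest to D, and Ighv1-86, the farthest from it, were lost in 0 of 14. Ighv1-86 was gained in AD thymic lymphoma 5.

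The V losses were in AD thymic lymphoma 7 and RP thymic lymphoma 1, both without a J-D loss. In AD thymic lymphoma 7, 45 V segments were lost, over 28.5% of the length of V. Its 3 lost blocks were Ighv2-2 to Ighv2-6 at -0.64 (18 markers), the 11 V segments from Ighv8-5 on at -0.88 (17 markers) and Ighv1-63 to Ighv1-74 at -0.996 (21 markers). RP thymic lymphoma 1 had lost 37 V segments, over 20.6% of the length, and gained 34, over 19.9%. Its losses were Ighv5-12-4 to Ighv9-2 at -1.13 (38 markers), Ighv1-61 to Ighv8-9 at -1.19 (10 markers) and 3 V segments ending at Ighv1-76 at -1.04 (3 markers), and its gains Ighv2-2 to Ighv5-9-1 at 0.43 (20 markers) and Ighv1-63 to Ighv1-74 at 0.41 (21 markers). In both lymphomas kept blocks lay between the lost ones, which differs from the single stretch of each J-D loss.

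These lymphomas shared 6 segment ends at 3 borders. The borders lay between 113578945 and 113588267, between 115468730 and 115495625, and between 115803035 and 115833950. The stretch from Ighv1-63 to Ighv1-74 had the same ends in both and went in opposite directions, at -0.996 in AD thymic lymphoma 7 and 0.41 in RP thymic lymphoma 1, as did the V segments that start at Ighv2-2, at -0.64 and 0.43. BALB/C and C57BL6 mice carry different heavy chain haplotypes, with different sets of V segments, and both strains were in this background. The haplotype of each mouse was not analysed here. Its part in these blocks, or in the segments over the constant genes, J and D, was not tested. The DNA that each tumour was compared with is not given either. A block called lost or gained, in V or elsewhere in Igh, is therefore low or high relative to an unknown reference.

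Smaller changes in V were seen in another pair of lymphomas. AD thymic lymphoma 5 had a gain from Ighv1-76 to Ighv1-86 at 0.57, on a segment of 108 markers that runs past the end of the locus to 116442937. AD thymic lymphoma 4 had gains of 2 markers each at Ighv5-16 (0.68) and Ighv16-1 (0.76), and a block from Ighv5-2 to Ighv5-15 at -0.19, above the value called a loss. In the remaining 10 lymphomas V lay on 1 segment, between -0.05 and 0.07.

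**Figure D3:**
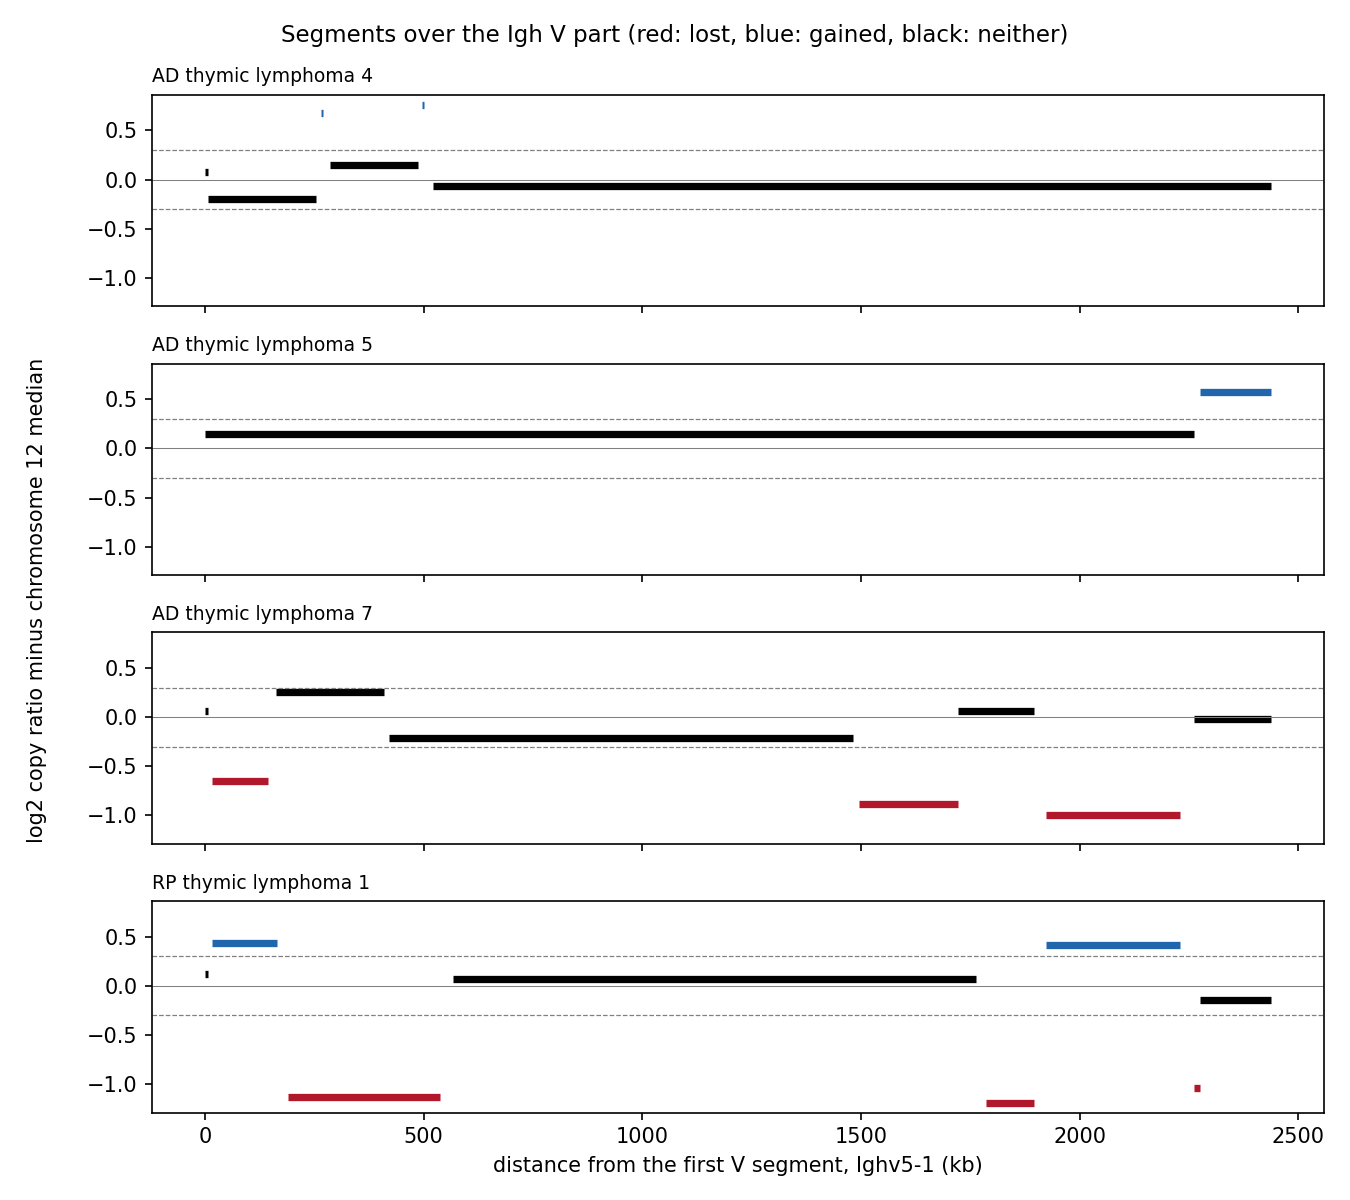
Copy number segments over the V part of Igh in the 4 thymic lymphomas with a segment start there: distance from the V segment nearest to D in kb (horizontal) against log2 copy ratio minus the chromosome 12 median (vertical), with the shortest segments widened so that they can be seen. AD thymic lymphoma 7 and RP thymic lymphoma 1 alternate between lost, kept and, in the second, gained blocks, and their block from Ighv1-63 to Ighv1-74 is at -0.996 in one and 0.41 in the other.

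Over the whole locus the thymic lymphomas had 46 segment starts, of which 23 fell between Ighj4 and Ighd1-1 in 11 tumours and 20 in V in 4 tumours. The sarcomas had 2, both in J-D of AD sarcoma 1. In no thymic lymphoma did 1 segment cover all of Igh, while it did in 9 of 10 sarcomas.

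The T-cell receptor loci, which are rearranged in T cells by the same proteins, served as a check of the tissue label. The lowest segment over the alpha and delta chain loci, Tra with Trd, was lost in 14 of 14 thymic lymphomas, with a median of -3.63 and a range from -5.25 to -2.02, and that over the beta chain locus, Trb, in 14 of 14 with a median of -3.46 and a range from -4.42 to -0.37. The highest, -0.37, was in AD thymic lymphoma 3, which had the deepest Igh loss and a mean of 0.11 over the whole of Trb. The gamma chain locus, Trg, was lost in 10 of 14 with a median of -1.22. Igh J-D was lost in 11 of 14 with a median of -1.16, and so was nearer to Trg than to Tra or Trb. The lambda light chain locus, Igl, was lost in 1 of 14. In the sarcomas Tra with Trd was lost in 1 of 10, at -0.80, and Trb in 1 of 10, at -0.35. AD thymic lymphoma 5, AD thymic lymphoma 7 and RP thymic lymphoma 1, without a J-D loss, still had their lowest Tra and Trd segment at -2.36 or below and their lowest Trb segment at -1.90 or below. A mix of T cells with other cells changes the size of each of these values; its share in each tumour was not tested.

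**Figure D4:**
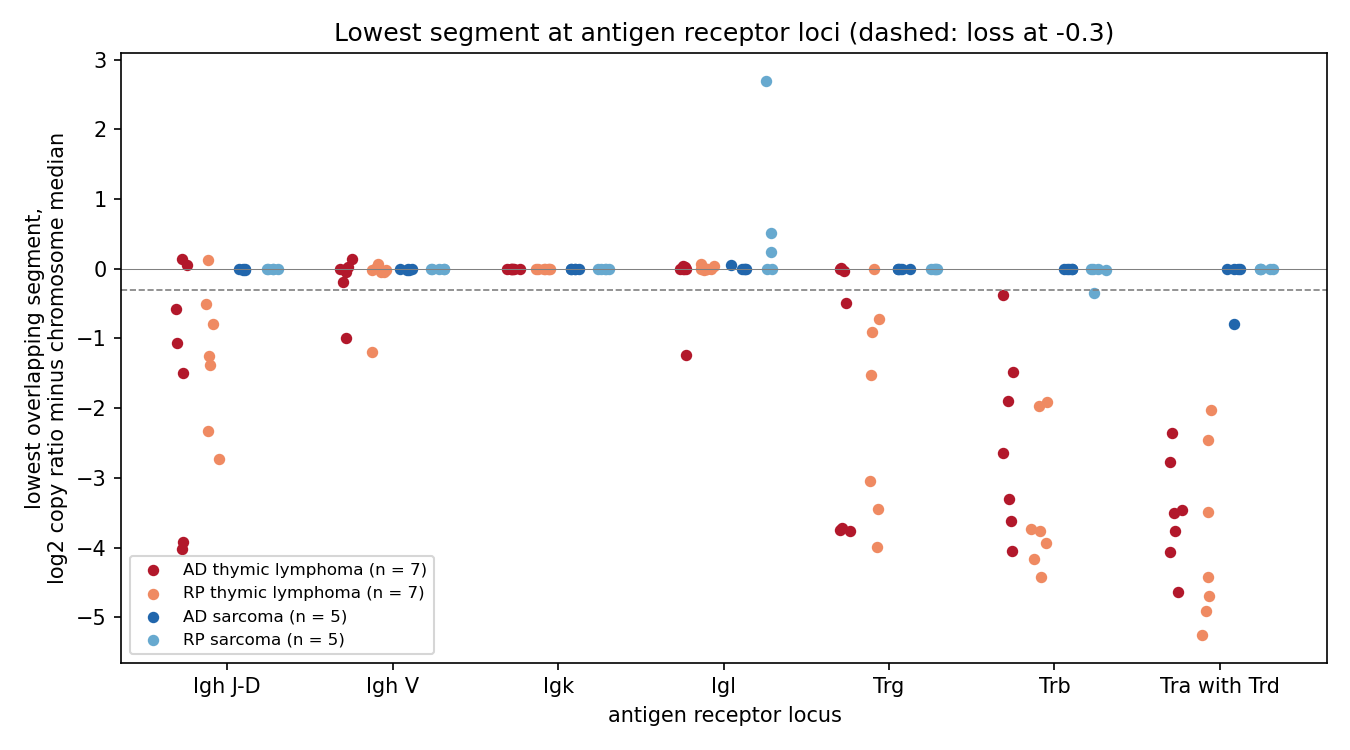
Lowest log2 copy ratio minus the chromosome median of any segment over each antigen receptor locus (vertical axis) for each tumour (points), thymic lymphomas and sarcomas side by side. Tra with Trd and Trb are low in all 14 thymic lymphomas, Igh J-D in 11 and Trg in 10, and Igk lies at 0 throughout.

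The AD and RP thymic lymphomas were compared because the study set dimeric against monomeric p53. A J-D loss was present in 5 of 7 AD and 6 of 7 RP thymic lymphomas. The mean over J-D was -0.26 ± 0.54 (SD, n = 7) in AD, from -1.40 to 0.14, and -0.30 ± 0.35 (SD, n = 7) in RP, from -0.81 to 0.12. The ranges overlapped, with AD thymic lymphoma 3 at -1.40 below every RP value. The difference of 0.04 was smaller than either spread (exact permutation test of all 3432 splits, two-sided, n = 7 and 7, p = 0.874, adjusted p = 0.878). Under other settings it lay between -0.32 and 0.29 and passed under none of those run (adjusted p 0.559 to 0.99). At Ighj1 the AD values ran from -4.03 to 0.14 with a mean of -1.56 (n = 7), and the RP values from -2.73 to 0.12 with a mean of -1.27 (n = 7).

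For AD against RP thymic lymphomas the difference was -0.03 in the constant part and -0.01 in V (exact permutation, n = 7 and 7, adjusted p = 0.878 each). In sarcomas J-D was 0.02 ± 0.04 in AD and -0.0035 ± 0.0048 in RP (exact permutation of 252 splits, n = 5 and 5, adjusted p = 0.91). The difference between tumour types was not found to depend on genotype at any region (exact permutation of the genotype labels, smallest adjusted p = 0.923). With 5 or 7 tumours a group, these tests leave room for differences of the size of the spread.

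Gene by gene over all 47042 autosomal genes, 63 (0.134%) were lower in thymic lymphomas than in sarcomas at an adjusted p under 0.05 and 0 were higher (exact permutation within genotype, Benjamini-Hochberg; 3069 lower and 1856 higher at an unadjusted p under 0.05). Of these 63, 54 were segments of Tra, Trd or Trb. None of the 215 Igh members was among them, and limma called 96 lower, also with 0 members. Ighj1 came nearest with a difference of -1.43 (exact permutation p = 0.00268, adjusted p = 0.173). Ighd4-1 differed by -1.13 (adjusted p = 0.227), Ighj2 by -1.06 (adjusted p = 0.307) and Ighd3-2 by -0.95 (adjusted p = 0.427), each by the exact permutation test. Without centring, where changes of whole chromosomes count too, 16530 genes were lower and 2610 higher, and 3 members passed: Ighj1, Ighj2 and Ighd4-1. Centred on the autosomes instead of each chromosome, 7083 genes were lower and 3192 higher, with 1 member lower, Ighj1, and 5 higher. The count of lower genes was 479 without AD thymic lymphoma 7 and 349 without RP thymic lymphoma 1, with 0 members in either.

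At an unadjusted p under 0.05, 4 members were lower, where 6.52% of all genes were, and these were the 4 just named. Another 5 were higher, where 3.95% of genes were. The 5 were Igha, Ighe, Ighg2c, Ighg2b and Ighg1, with differences of 0.05 to 0.06. The median difference was -0.69 over the 4 J segments, -0.20 over the 20 D segments, 0.05 over the 8 constant genes and -0.0041 over the 183 V segments, against 0.0012 over all genes. Members on 1 segment share 1 value, so these are not independent measurements.

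Between AD and RP thymic lymphomas 0 of 47042 genes were called (0.0%) and 0 members (exact permutation; 1716 genes at an unadjusted p under 0.05; limma 0). Between AD and RP sarcomas it was again 0 genes (0.0%) and 0 members (1161 at an unadjusted p under 0.05; limma 0). At an unadjusted p under 0.05, 0 members were called in either comparison, where 1.31% of genes were lower and 2.34% higher in AD thymic lymphomas, and 1.65% lower and 0.818% higher in AD sarcomas.

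Genes that act on the locus were followed in the same tests. Of 16 genes for recombination and end joining, among them Rag1 and Rag2, which make the cuts, Dntt, which adds bases at the joins, and Lig4 and Xrcc4, which seal them, 0 were called (exact permutation, smallest adjusted p = 0.39; 2 lower and 2 higher at an unadjusted p under 0.05). The only loss among them was Prkdc, a kinase of end joining, at -1.23 in AD thymic lymphoma 4, on the same chromosome 16 segment as Igl, so that both are 1 loss. Rag1 and Rag2 were lost in 0 of 24 tumours.

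Of 10 genes for access to the locus or B-cell identity, among them Pax5, Ebf1, Ctcf and Cd79a, 0 were called (smallest adjusted p = 0.449; 1 higher, Yy1, at an unadjusted p under 0.05). Ikzf1, a lymphoid transcription factor, was lost in 1 thymic lymphoma, RP thymic lymphoma 3, at -0.57. Of 14 genes inside or beside the locus, 0 were called (smallest adjusted p = 0.652; 0 at an unadjusted p under 0.05). Their median difference of 0.22 moved with AD thymic lymphoma 6, in which Akt1, a kinase gene on the constant side, and Mta1 were at 5.11; that amplified segment ended before Igha, which was at 0.11. In AD thymic lymphoma 5 Akt1 was at 1.19 and Igha at 0.14. On the V side, Zfp386 was at 0.57 in AD thymic lymphoma 5 and between -0.14 and 0.07 in the other 13 lymphomas.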

How the data were processed

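DNA copy number was measured by exome sequencing (150 nt reads) in 24 mouse tumours. The submitters' processing notes list GATK 4.1.0.0, BWA 0.7.17 and Trim Galore 0.6.5, with GRCm38 as build and no roles. Per the file headers, the deposited tables give each segment's chromosome, ends, number of markers and segment mean. The deposited segment mean is a log2 copy ratio; base 2 is assumed from common use, and the sources used here do not give the comparison DNA, the segmentation settings or any purity correction. The marker number deposited by the authors counts capture targets or windows; read depth is unknown, so no counting interval is given and the spread between tumours is the only error.

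Deposited segment ends equalled marker starts counted from 0, and 1 base was added. From each value the length-weighted median of its chromosome in that tumour was subtracted. Gene positions came from RefSeq (GRCm38.p6); a gene took the overlap-weighted mean of its segments, or the nearest segment. Parts of Igh were the constant, J-D, D-to-V and V spans and the V span divided in 3, tested with Igk as 8 regions. Tumour types were compared by exact permutation within genotype (627264 splits) and genotypes by exact permutation (smallest possible p 0.000583 for 7 against 7 and 0.00794 for 5 against 5); pairs of parts by exact sign flips (16384). All tests were two-sided with Benjamini-Hochberg adjustment at 0.05. The gene fit covered all 47042 autosomal genes. Testing code was checked on simulated data. Alternatives were other centrings, the lowest segment, the median over genes, segments of at least 5 markers, other loss thresholds, each tumour left out, and limma 3.58.1 (R 4.3.3). Python 3.11.15, numpy 2.4.6, pandas 2.3.3, scipy 1.17.1 and matplotlib 3.10.9 were used. The members and gene lists were chosen with earlier results of these data known. Named members were all constant and J segments, the first and last D, Adam6a and Adam6b, the nearest and farthest V, the 10 lowest in thymic lymphomas, and those at the ends of described segments, chosen after their values were seen. No sequence of an Igh member was used here.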

Additional observations from a re-analysis of the deposited data

Results flagged for a closer look

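In 36 sets of values (9 regions or genes in 4 groups) the highest and lowest tumour were compared with the rest by Dixon's criterion. It was met in 11. Chance meets it in about 1 of 20 sets when values are normally spread and sets are independent. Here the sets share segments, and many sarcoma values are 0 after centring. The 11 of 36 can therefore not be read against that rate. In AD thymic lymphomas, AD thymic lymphoma 4 stood apart in the constant part, with a mean of -0.22, and AD thymic lymphoma 3 in the J-D mean, at -1.40. At single members, Ighj2 was far below the other AD thymic lymphomas in AD thymic lymphoma 1, at -3.92, and Ighd4-1 and Ighd3-2 were far below them in AD thymic lymphoma 3, at -4.03 each. In AD sarcomas, AD sarcoma 3 stood apart in the constant part at -0.0121, where the other 4 were at or close to 0, and AD sarcoma 1 stood apart in the J-D mean at 0.10 and at Ighj1, Ighj2, Ighd4-1 and Ighd3-2, at 0.27 each on 1 segment. The RP groups held no such value.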

How the results depend on the processing

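No paired analysis was possible because the labels carry no replicate numbers that tumours of different groups share. Depth is unknown, and marker spacing limits where a loss ends. Flank centring subtracted the mean over 1 Mb on each side of the locus. On the constant side that flank held the amplified segment of AD thymic lymphoma 6 (Mta1 at 5.11). In AD thymic lymphoma 5 it held Akt1 at 1.19. Flank-centred Igh values are therefore lowered in both tumours. The share of this in each flank-centred difference was not tested. The J-D difference between thymic lymphomas and sarcomas was -1.41 with the lowest segment and -0.52 over J-D markers, both past the threshold, -0.17 on autosomal centring (adjusted p = 0.34), -0.49 on flank centring (adjusted p = 0.223), and -0.32 to -0.19 with 1 tumour left out (adjusted p 0.108 to 0.591). J-D minus constant passed with the median over genes (-0.31), the lowest segment (-1.34) and markers (-0.53). With 1 left out it was -0.36 to -0.23. Without centring and on autosomal and flank centring it stayed at -0.31, since the same centre is taken from both parts. Its unadjusted p cannot change there either. It passed in these settings only because the other pairs in the adjustment moved, so they are not separate support. J-D minus Igk shrank to -0.11 without centring and on autosomal centring (exact sign-flip permutation, adjusted p = 0.38 each). These settings must give the same difference, since autosomal centring takes the same value from both parts. J-D minus Igk passed with flank centring (-0.47), the lowest segment (-1.41) and markers (-0.50). With 1 left out it was -0.31 to -0.20, past the threshold without AD thymic lymphoma 4, 5 or 7 or RP thymic lymphoma 1. J-D minus V passed with the lowest segment (-1.25) and markers (-0.48), and was -0.30 to -0.16 with 1 left out, past it without AD thymic lymphoma 7.

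The differences between AD and RP turned direction and passed under none of these settings. Both tumours with the raised flank, AD thymic lymphomas 5 and 6, are in the AD group, which lowers its flank-centred values. In thymic lymphomas J-D was 0.29 with the gene median, -0.32 with flank centring, -0.29 with the lowest segment, -0.0247 without AD thymic lymphomas 5 and 6, and -0.0428 to 0.23 with 1 left out. Constant was -0.40 with flank centring (adjusted p = 0.149), 0.00164 without centring, 0.00891 with the gene median, 0.0653 with the lowest segment and -0.0555 to 0.00476 with 1 left out. V was -0.38 with flank centring (adjusted p = 0.296), 0.0253 without centring, 0.0176 on autosomal centring, 0.0223 with the lowest segment, and -0.0444 to 0.0377 with 1 left out. In sarcomas J-D was -0.0749 without centring, -0.0728 on autosomal centring, -0.00212 with the lowest segment and 0.00045 to 0.0273 with 1 left out. Between tumour types, V was -0.22 with flank centring, -0.16 with the lowest segment, 0.00886 without centring, 0.0975 on autosomal centring and -0.0404 to 0.0006 with 1 left out. Constant was 0.15 on autosomal centring (adjusted p = 0.0505), -0.16 with flank centring, -0.0674 with the lowest segment, and 0.06 and past the threshold with the gene median (adjusted p = 0.0315).

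The count of thymic lymphomas with J-D lost was 11 with the lowest segment, 3 at -0.5 or below, 1 at -1 or below and 5 to 6 with 1 left out; without centring 1 sarcoma was counted. Genes lower in thymic lymphomas numbered 96 with limma, 16530 without centring, 7083 on autosomal centring and 60 to 479 with 1 left out; higher genes numbered 2610 and 3192 under those centrings. The cause of these changes was not tested. Segment ends as written, a setting added afterwards, left the count of lost tumours at each J unchanged.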
